A study of Homo sapiens with 6 samples.

Results

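The 5S ribosomal RNA genes RNA5S1 to RNA5S10 were examined as targets of 2 HSP70 chaperones in FLASH-seq peak lists. They were chosen by name, as the first 10 of the 17 copies of an array on chromosome 1, out of 58998 genes used, and span chr1:228610266-228630508 (GRCh38). All 10 were found in the gene table, and all carried a peak in each of the 4 lists. FLASH-seq recovers RNA fragments joined by ultraviolet light to a tagged protein, and a peak is a stretch of the genome where such fragments pile up. The cells were HEK293 Flp-In T-Rex, an established line from human embryonic kidney whose transgene, inserted at a fixed site, is switched on by tetracycline. All groups carried a bait with the 3xFLAG-HBH tag induced with 1 µg/ml tetracycline, and differed in the bait: GFP, HSPA1A (stress-inducible HSP70) or HSPA8 (constitutive HSP70), with 2 biological replicates each. The baits came from a transgene, and the labels name no change to the cells' own HSP70 genes. Peaks of the GFP bait were not analysed here, and the values below therefore lack a control background. The lists hold no expression levels, so the identity of the line was not checked here.

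5S rRNA is the small RNA of the large ribosomal subunit that is made apart from the other ribosomal RNAs. RNA polymerase III transcribes it from a promoter inside the gene, where TFIIIA binds, and TFIIIA and the La protein also bind the RNA itself. The RNA then joins the ribosomal proteins RPL5 and RPL11 in a particle that enters the ribosome or, when unassembled, binds MDM2.

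The lists held 2744 and 2059 peaks for HSPA1A and 3131 and 2040 for HSPA8. Each peak has a whole-number score from the authors whose meaning is not stated in the sources used here, and read depth is unknown. Scores are used below as each peak's own value, and set only against other peaks of the same list. The HSPA8 lists also held 353 and 617 peaks on sequences outside the 25 chromosomes listed in all 4 files, against 0 in the HSPA1A lists. The HSPA8 samples also carry record numbers in a separate range from those of GFP and HSPA1A. A difference between the baits below therefore cannot be told apart from a difference in how or when the lists were made.

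The members lie head to tail, 2215 to 2242 bp apart from one start to the next over the whole array, and each is 121 nt long. RNA5S1 is annotated as an rRNA gene at chr1:228610266-228610386, RNA5S9 at chr1:228628146-228628266 and RNA5S10 at chr1:228630388-228630508. All 18 peaks on the array in each list were on the minus strand and 0 on the plus strand. The gene table gives no strand, so positions within a gene are counted from 1 at its end on the minus strand, taken from the peaks as the 5′ end.

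A peak lay on 10 of 10 members in HSPA1A replicate 1, where 3.06% of all genes had one. The same 10 carried one in HSPA1A replicate 2, against 2.02% of all genes. They did so in both HSPA8 lists too, against 3.07% in replicate 1 and 1.3% in replicate 2. A peak in all 4 lists was found at 10 of 10 members, at 0.883% of all genes and at 9% of the 478 other polymerase III RNA genes. It was also found at 9 of the 9 other ribosomal RNA genes on chromosome 21 (100%), so 5S shared this with the rest of the ribosomal RNAs. The members are repeated copies of 1 gene, so these 10 hits are not independent of each other, and a peak is uncertain between copies. Their sequences were not compared here.

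The scores repeated from copy to copy. RNA5S1 scored 541 and 282 in HSPA1A replicates 1 and 2, and 1120 and 190 in HSPA8 replicates 1 and 2. RNA5S2 scored 540 and 282 with HSPA1A and 1118 and 190 with HSPA8. RNA5S3 scored 546 and 282 with HSPA1A and 1105 and 186 with HSPA8. Each list thus gave these neighbours almost the same score. RNA5S4 scored 539 and 282 with HSPA1A and 1100 and 189 with HSPA8. RNA5S5 scored 537 and 281 with HSPA1A and 1106 and 185 with HSPA8. RNA5S6 scored 541 and 281 with HSPA1A and 1109 and 186 with HSPA8. The order of the copies was not the same in the 4 lists, and ties were common in the lists numbered 2. RNA5S7 scored 537 and 283 with HSPA1A and 1104 and 187 with HSPA8. RNA5S8 scored 535 and 282 with HSPA1A and 1100 and 184 with HSPA8. RNA5S10 scored 538 and 282 with HSPA1A and 1101 and 185 with HSPA8. Over these 9 genes, the range from lowest to highest score was 2.04% and 0.709% of the median with HSPA1A, and 1.81% and 3.23% with HSPA8. RNA5S9 was the exception in all 4 lists and is described below.

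**Figure D1:**
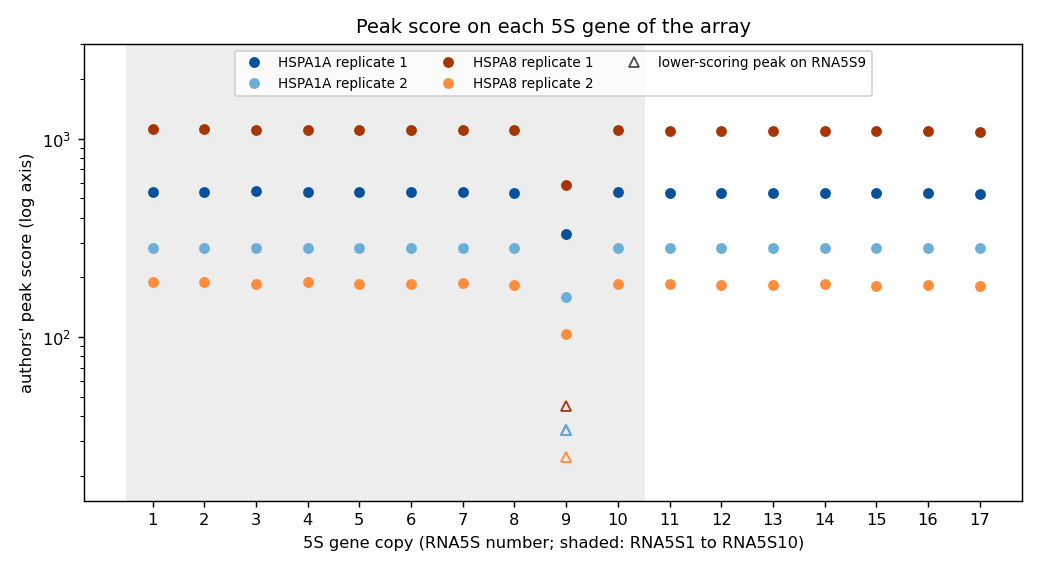
Score of the best peak on each of the 17 copies of the 5S array (x axis, copy number; shaded, RNA5S1 to RNA5S10) in each list (y axis, authors' score, log axis). Circles form a nearly level row per list except at RNA5S9, where the circle drops and an open triangle marks a further peak; the triangles of both HSPA1A lists coincide at 34.

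Small differences ran along the array. Without RNA5S9, the Spearman correlation between copy number and score over 16 copies was -0.90 and -0.59 with HSPA1A and -0.94 and -0.87 with HSPA8. These copies are not independent of each other and share libraries, so the values are a description only. In HSPA1A replicate 1 the 9 members scored 535 to 546 and RNA5S11 to RNA5S17 scored 528 to 533, without overlap. In HSPA8 replicate 1 they scored 1100 to 1120 against 1085 to 1096, again without overlap. In HSPA1A replicate 2 the ranges, 281 to 283 and 281 to 282, overlapped. In HSPA8 replicate 2 they were 184 to 190 and 182 to 185, with 6 of the 9 members above all 7 other copies. The highest score fell on RNA5S3 and RNA5S7 in the HSPA1A lists, on RNA5S1 in HSPA8 replicate 1, and on RNA5S1 and RNA5S2 together in HSPA8 replicate 2.

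Within the gene, the peak took in nearly the whole RNA. On the 9 members other than RNA5S9 it ran from nucleotide 10 to 120 in both HSPA1A lists, a width of 111 bp. In HSPA8 replicate 1 it ran from nucleotide 9 to 120 on all 9, a width of 112 bp. In HSPA8 replicate 2 it started at nucleotide 10 on RNA5S1 and RNA5S2 and at 9 on the other 7, and ended at 120 on all 9. The last nucleotide and the first 8 or 9 were outside the peak on these genes in every list. Such widths were large for these data: 89.0% and 94.5% of peaks were narrower with HSPA1A, and 84.3% and 91.4% with HSPA8.

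By the median over the 10 members, peaks covered 91.7% of the gene in both HSPA1A lists and 92.6% in both HSPA8 lists. The difference of -0.83 percentage points, HSPA1A minus HSPA8, comes to 1 nucleotide at the 5′ edge (p = 0.333 by two-sided exact permutation, which 2 lists against 2 cannot go below). The median 5′ edge was nucleotide 10 in both HSPA1A lists and 9 in both HSPA8 lists (exact permutation, p = 0.333). The median width differed by the same single base, 111 against 112 bp (exact permutation, p = 0.333). The median 3′ edge was nucleotide 120 in all 4 lists (exact permutation, p = 1). The spread between replicates of these medians was 0, but RNA5S1 and RNA5S2 in HSPA8 replicate 2 had the HSPA1A edge.

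The extent of the peak was set beside that on other polymerase III RNAs. At least 90% of the gene was covered at 9 of the 10 members in both HSPA1A lists, and at 10 and 9 in the HSPA8 lists. Among other polymerase III RNA genes with a peak, 6.31% and 10.7% were covered to that extent with HSPA1A, and 16.3% and 12.1% with HSPA8. Their median coverage was 63.5% and 50.0% with HSPA1A and 65.3% and 62.2% with HSPA8. Most of them are tRNA genes, which are shorter than 5S, and the difference in coverage was not tested. RNA5-8SN1, the gene for the short ribosomal RNA that pairs with 28S, carried 2 peaks in every list. Together they covered 100% and 94.9% of it with HSPA1A and 100% and 93.0% with HSPA8, more than the 5S median in every list.

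Each deposited peak also has a narrower inner interval, whose definition is not given in the sources used here. Its genomic start may be off by 1 base, and on the minus strand this start is the 3′ edge in the gene. On RNA5S1 the inner interval ran from nucleotide 11 to 109 and from 11 to 112 in the HSPA1A lists. In the HSPA8 lists it ran from 11 to 119 and from 11 to 115. On the 9 members other than RNA5S9 its 5′ edge was at nucleotide 11 in every list. Its 3′ edge lay at 106 to 110 and at 112 to 116 in the HSPA1A lists, and at 119 and at 115 to 116 in the HSPA8 lists. The inner interval thus stopped short of the 3′ end by more in HSPA1A replicate 1 than in the other lists, while in HSPA1A replicate 2 RNA5S10 alone, at nucleotide 116, reached the range of HSPA8 replicate 2. Over the 10 members the median 3′ edge averaged 111 ± 2.83 (SD, n = 2) with HSPA1A. With HSPA8 it averaged 117.5 ± 2.12 (SD, n = 2). The difference of -6.50 nt was larger than either SD (p = 0.333 by exact permutation, again the floor) and was picked out after the values were seen. Like the differences of 1 nucleotide above, it cannot be told apart from other differences between the lists of the 2 baits. As a share of the peak's width, the inner interval had a median of 89.2% and 92.8% on these 9 genes with HSPA1A, and 97.3% and 94.6% with HSPA8. Over all peaks of a list the median share was 90.9% and 90.3% with HSPA1A, and 91.7% and 85.7% with HSPA8.

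**Figure D2:**
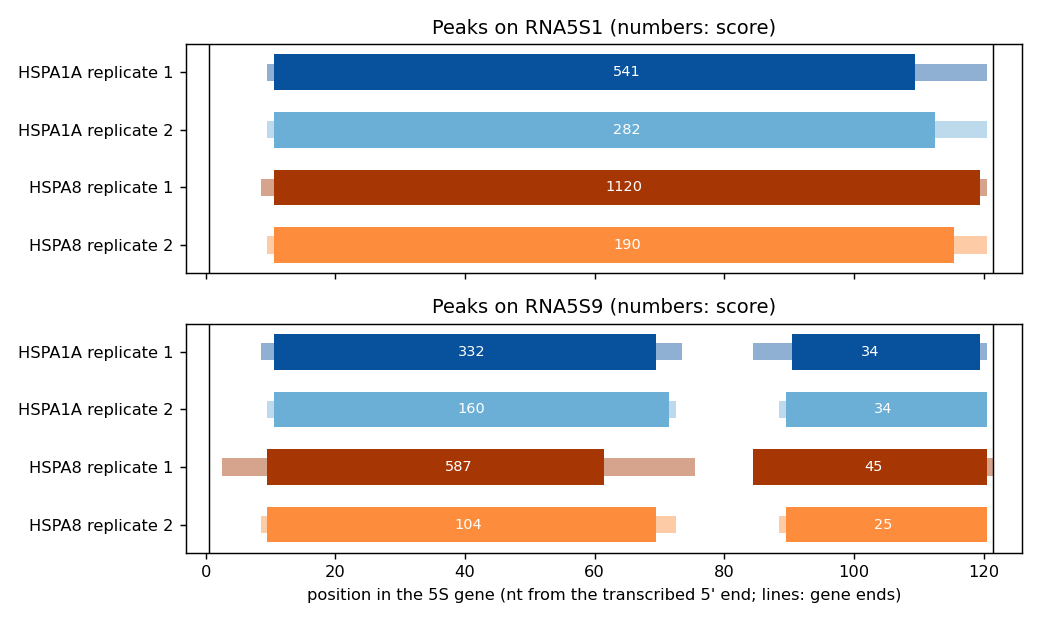
Extent of the peaks on RNA5S1 and RNA5S9 along the 121 nt gene (x axis, nucleotides from the 5′ end); pale bars are whole peaks, dark bars the inner interval, and numbers the score. RNA5S1 has 1 peak per list that ends at nucleotide 120, and RNA5S9 has 2 with a gap between them in every list.

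RNA5S9 carried 2 peaks in each of the 4 lists where the other 16 copies carried 1. In HSPA1A replicate 1 the upstream peak covered nucleotides 9 to 73 with a score of 332, and the downstream peak nucleotides 85 to 120 with a score of 34. In HSPA1A replicate 2 they covered 10 to 72 with a score of 160, and 89 to 120 with a score of 34. In every list the upstream part had the higher score. In HSPA8 replicate 1 they covered 3 to 75 with a score of 587, and 85 to 121 with a score of 45. In HSPA8 replicate 2 they covered 9 to 72 with a score of 104, and 89 to 120 with a score of 25. The stretch without a peak ran from nucleotide 74 to 84, 73 to 88, 76 to 84 and 73 to 88 in these lists in turn, so nucleotides 76 to 84 were free of a peak in all 4. The coverage of RNA5S9 was 83.5% and 78.5% with HSPA1A, and 90.9% and 79.3% with HSPA8.

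The upstream peak of RNA5S9 scored 61.6% and 56.7% of the median of the other 9 members with HSPA1A, and 53.1% and 55.9% with HSPA8. The downstream peak scored 6.31% and 12.1% of it with HSPA1A, and 4.07% and 13.4% with HSPA8. The ratio of upstream to downstream score was 9.76 and 4.71 for HSPA1A and 13.0 and 4.16 for HSPA8, higher in both lists numbered 1. RNA5S9 therefore had the lowest best score of the 17 copies in every list. Whether its sequence differs from the other copies at the gap was not tested.

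Within each list the 5S peaks ranked high without being at the top. The median score of the 9 members other than RNA5S9 was above 92.2% and 95.5% of peaks with HSPA1A, and 91.9% and 93.2% with HSPA8. On the chromosomes listed in all 4 files the HSPA8 values were 95.4% and 93.2%. The number of peaks with a higher score was 213 and 85 with HSPA1A, and 254 and 137 with HSPA8. On the chromosomes listed in all 4 files the HSPA8 counts were 128 and 95. The upstream peak of RNA5S9 stood above 89.9% and 90.4% of peaks with HSPA1A, and 89.3% and 82.6% with HSPA8.

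The other ribosomal RNAs come from a separate precursor made by RNA polymerase I, and their peaks ranked around or above those of 5S. The best peak on RNA18SN1, a gene for the small-subunit RNA on chromosome 21, stood above 99.75% to 99.96% of peaks over the 4 lists. The best peak on RNA28SN1, for the long RNA of the large subunit, stood above 99.8% and 97.6% with HSPA1A, and 99.6% and 97.3% with HSPA8. RNA5-8SN1 is the nearest of them to 5S in length at 157 nt. Its best peak stood above 96.3% and 91.9% with HSPA1A, and 93.9% and 88.0% with HSPA8. RNA5-8SN1 thus ranked above the 5S median in both lists numbered 1 and below it in both lists numbered 2. The peaks on these genes are also uncertain between copies of their repeat.

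**Figure D3:**
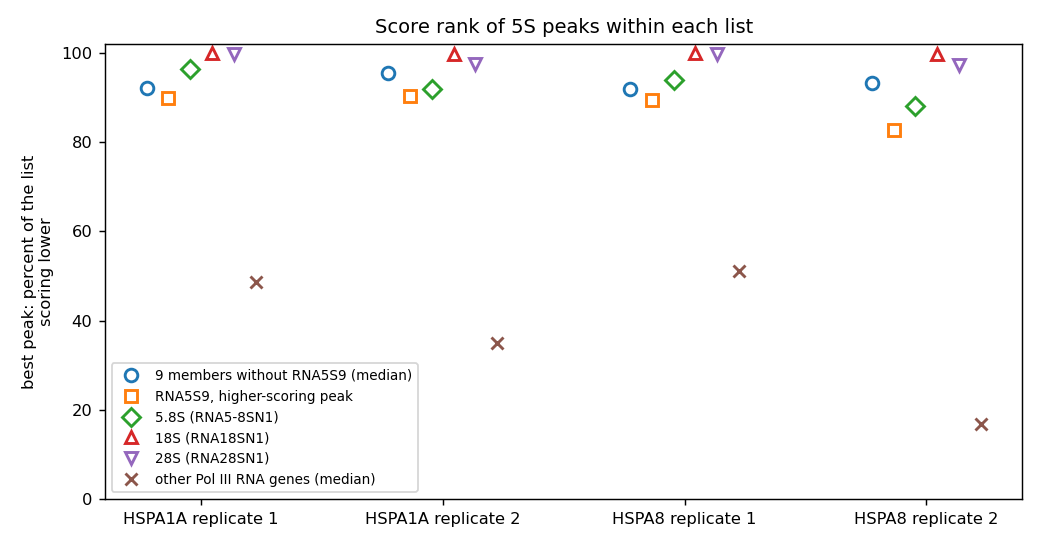
Rank of the best peak within each list (y axis, percent of the list's peaks with a lower score) for 5S, RNA5S9, RNA5-8SN1, 18S, 28S and other polymerase III RNAs. The 5S median lies between 91.9% and 95.5%, under 18S and 28S and far over the median of the other polymerase III RNA genes, which was at most 51.1%.

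Among other polymerase III RNA genes with a peak, the median rank was above 48.6% and 35.0% of peaks with HSPA1A, and 51.1% and 16.7% with HSPA8. Of the 43 with a peak in all 4 lists, those closest to 5S in rank over the 4 lists were 5 copies of the aspartate tRNA gene with anticodon GTC. TRD-GTC2-8 was closest, with a mean absolute difference of 10.6 percentage points. It stood above 90.4% and 96.7% of peaks with HSPA1A, close to 5S, but above 76.6% and 69.0% with HSPA8. The next were TRD-GTC2-2, TRD-GTC2-5, TRD-GTC2-3 and then TRD-GTC2-4, which differed from 5S by 10.9 points or slightly more. By this mean over the 4 lists, no other polymerase III RNA of this set came within 10 points of 5S. In the HSPA1A lists alone, TRD-GTC2-8 was nearer than that.

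The share of each list that lay on the members was set by the length of the list. All 4 lists held 11 peaks on the 10 genes, which is 1 each and 2 on RNA5S9. This was 0.401% of peaks in HSPA1A replicate 1 (95% Wilson interval 0.224 to 0.716) and 0.534% in HSPA1A replicate 2 (0.299 to 0.954). It was 0.351% in HSPA8 replicate 1 (0.196 to 0.628) and 0.539% in HSPA8 replicate 2 (0.301 to 0.963). The intervals cover counting error over peaks only. They take peaks as independent, which those on repeated copies are not, so they are a description. HSPA1A averaged 0.468% ± 0.0943 (SD, n = 2). HSPA8 averaged 0.445% ± 0.133 (SD, n = 2), so the baits differed by less than either SD (p = 1 by exact permutation). On the chromosomes listed in all 4 files the difference of 0.0223 percentage points turned to -0.117, and it also turned without HSPA1A replicate 2 (-0.0444) or HSPA8 replicate 1 (-0.0717).

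The spacers between the genes, and the 2300 bp on either side of the array, were nearly free of peaks, with 1 list as the exception. Peaks off the genes in this window are called spacer peaks here. HSPA8 replicate 1 held 17 spacer peaks on the minus strand, each 67 bp wide with a score of 5. The first of them, at chr1:228608872-228608938, lay beyond RNA5S1, outside the array. Between RNA5S1 and RNA5S2 the peak lay at chr1:228611113-228611179. This was 727 bp upstream of the 5′ end of RNA5S1 and 1328 bp downstream of the 3′ end of RNA5S2. Over the array the distance to the 5′ end of the next copy was 705 to 727 bp and that to the 3′ end of the copy behind was 1312 to 1329 bp. The score was near the bottom of the list, where 24.7% of peaks scored 5 or less. The other lists held 0 peaks at this place. HSPA1A replicate 1 had a lone spacer peak at chr1:228608358-228608405, with a score of 16. It lay 1861 bp downstream of RNA5S1 and so outside the array, not between 2 genes. HSPA1A replicate 2 and HSPA8 replicate 2 had 0 spacer peaks within 2300 bp of the array.

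**Figure D4:**
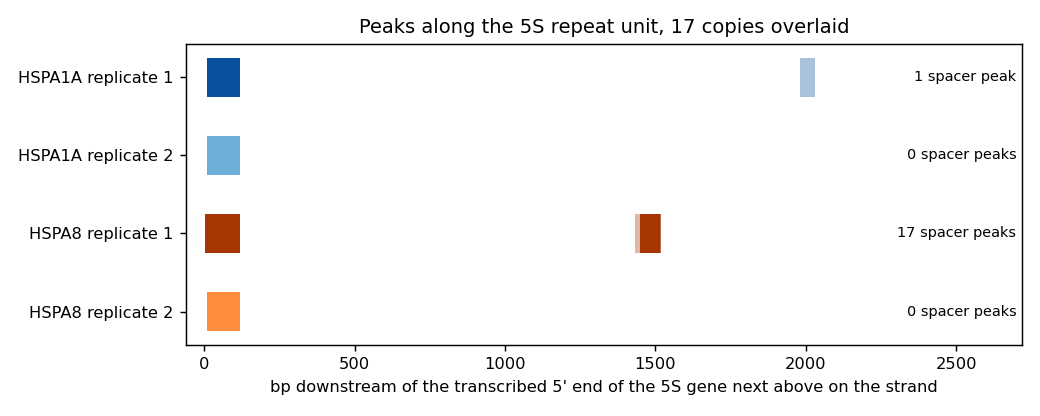
Peaks along the repeat unit with the 17 copies overlaid (x axis, base pairs downstream of the 5′ end of the 5S gene; saturated bars, best peak on the gene; pale bars, spacer peaks, which darken where copies coincide). The gene peak is present in all 4 lists, and HSPA8 replicate 1 has 17 spacer peaks, HSPA1A replicate 1 has 1 and the others have 0. Spacer peaks include those outside the array within 2300 bp of it, as is the 1 of HSPA1A replicate 1.

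Scattered 5S pseudogenes, which are degenerate copies elsewhere in the genome, also carried peaks. Of 510, a peak lay on 40 and 33 in the HSPA1A lists (7.84% and 6.47%) and on 41 and 27 in the HSPA8 lists (8.04% and 5.29%), with 26 in all 4 lists (5.1%). Median coverage of those with a peak was 37.5% and 30.3% for HSPA1A and 41.2% and 37.8% for HSPA8. The highest coverage in a list ranged from 80.0% to 91.4%. In both HSPA1A lists and HSPA8 replicate 2 it was that of RNA5SP243. This pseudogene is only 35 bp long, shorter than its peaks there of 43, 44 and 40 bp. In HSPA8 replicate 1 it was that of RNA5SP370, 90 bp long with a peak of 81 bp. The median best score on pseudogenes with a peak was 34 and 19 with HSPA1A and 34 and 31 with HSPA8. The highest was on RNA5SP370, at chr12:104125236-104125325, with 371 and 167 for HSPA1A and 653 and 113 for HSPA8, tied with RNA5SP389 in HSPA8 replicate 2. RNA5SP389 came next in the other lists, and RNA5SP145, RNA5SP149 and RNA5SP226 followed in that order in all 4. These pseudogenes are named after their values were seen. In each list 0 pseudogenes reached the lowest score of the 9 members other than RNA5S9, which was 1.44 and 1.68 times the highest pseudogene in the HSPA1A lists, and 1.68 and 1.63 times in the HSPA8 lists. The upstream peak of RNA5S9 had scores close to those of RNA5SP145: 332 against 341, 160 against 159, 587 against 604 and 104 against 103. Its width of 65, 63, 73 and 64 bp was close to the 67, 63, 75 and 65 bp of RNA5SP145. RNA5SP370 scored higher than RNA5S9 in every list, with widths of 75, 63, 81 and 69 bp. How reads that match several places were treated is not given in the sources used here, so the part of RNA from the array in the pseudogene peaks was not tested.

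Transcripts of the proteins that make or bind 5S RNA carried no peak in these lists. A list of 29 genes was drawn up by role, and 0 of the 29 had a peak in any of the 4 lists, where 4.94% of all genes had one in some list. At that share few of 29 genes would carry a peak, so the absence is near the background and shows no depletion. The 4 genes for proteins that bind the RNA were GTF3A (TFIIIA), RPL5, RPL11 and SSB (La). The 3 for assembly of the 5S particle were HEATR3, RPF2 and RRS1, and MDM2 is the ubiquitin ligase that senses the free particle. The remaining genes encode 6 subunits of TFIIIC, 3 of TFIIIB, 11 subunits of RNA polymerase III and the repressor MAF1. The lists hold only regions that passed the authors' threshold, so lower signal on these transcripts is not seen.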

How the data were processed

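FLASH-seq peak lists of 4 libraries were used, 1 per replicate of HSPA1A and HSPA8. The submitters' processing notes name Trim Galore 0.4.4, STAR 2.6.0b, FastQC, deepTools and GRCh38; how peaks were called and how multi-mapping reads were handled is not given in the sources used here. Per the labels' protocols, random tags served to merge PCR duplicates. The deposited score of each peak is a whole number of unstated meaning.

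Genes came from the RefSeq table for GRCh38.p14 (58998 of 59792 genes used; genes out of order on their chromosome, which belong to scaffolds, were left out). A peak was assigned by an overlap of at least 1 bp, with strand ignored. The 478 other polymerase III RNA genes are nuclear tRNA, 7SK, 7SL, RMRP, RPPH1, U6, U6atac, Y, vault, BC200 and snaR genes. Each list gave 1 value per measure, the median over the 10 members, because copies are not replicates. The baits were set against each other by exact permutation of the bait labels (two-sided, 6 orders), for which the lowest p is 0.333. Positions use the best-scoring peak of a gene. Named genes were the members, other copies, a list of 29 partner genes by role, the other ribosomal RNA genes and the 5 polymerase III RNA genes nearest to 5S in score rank. The members and lists were chosen with earlier results of these data known.

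Alternatives were a score at or above the list median, at least 50% of the peak inside the gene, all or only the best peaks, all 17 copies, base pairs, the chromosomes of all 4 files, each replicate left out and the replicate block. The inner interval and the setting without RNA5S9 were added after seeing the data. Position and coverage functions were tested on simulated data with known positions, of which 200 of 200 were recovered. Python 3.11.15, numpy 2.4.6, scipy 1.17.1 and matplotlib 3.10.9 were used.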

Additional observations from a re-analysis of the deposited data

How the results depend on the processing

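Over 50 values of a difference other than 0 under other settings, 47 kept the direction of the reported value and 3 reversed, all 3 in the share of peaks on the members. That difference, 0.0223 percentage points for HSPA1A minus HSPA8, was -0.117 on the chromosomes listed in all 4 files. There, peaks on other sequences leave the HSPA8 denominators. The difference lay between -0.0717 and 0.116 when 1 replicate was dropped. It was 0.157 with base pairs in place of peaks (exact permutation, p = 0.667). The differences in covered bases, width and 5′ edge, each of 1 nucleotide, and the 3′ edge were the same under every alternative run. For most of these alternatives the outcome was fixed beforehand. Every peak on the members scored above its list median and lay inside its gene. The score and overlap filters therefore removed none of them. These medians were identical within each bait, so leaving out a replicate or adding the replicate block could not change the differences. The 47 values that kept direction include such values and so do not measure stability. The 3′ edge of the inner interval differed by -6.50 nt, by -7.0 with all 17 copies, and by -8.50 to -4.50 with a replicate left out. The count of members with a peak in all 4 lists was 10 under each alternative, none of which removed a peak on the members. No label ties same-numbered libraries to a common day or batch, and presence of a peak deviated from the bait mean with a correlation of -0.0022 between same-numbered lists over 2914 genes. These genes were kept for a peak in at least 1 of the same lists, which affects such a correlation. The value therefore cannot show whether same-numbered libraries are linked. With the replicate block no difference changed (0.0223 for the share of peaks, exact sign-flip permutation p = 1; -6.50 for the inner edge, p = 0.5, the smallest possible). No exact test here can pass the usual threshold, so unchanged calls say nothing about stability. Read depth is unknown, and how reads shared by several copies were placed is not given in the sources used here.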
